A study of Mus musculus with 7 samples.

Results

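The genes described here are 10 antioxidant enzymes and metallothioneins measured in the mouse heart after myocardial infarction: the superoxide dismutases Sod1, Sod2 and Sod3, catalase (Cat), the glutathione peroxidases Gpx1, Gpx3 and Gpx4, the metallothioneins Mt1 and Mt2, and the quinone reductase Nqo1. They were chosen by name, as genes of known function, with earlier results of these data known. All 10 were among the 56980 genes of the table, and all 10 were among the 11431 genes kept by a filter that asked for 1 FPKM or more in 3 or more libraries. Their FPKM was above this minimum in each of the 7 libraries. FPKM divides the fragments of a gene by its length and by the depth of the library. It does not correct for differences between hearts in the make-up of their RNA.

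Total RNA of myocardial tissue was sequenced from 7 male wild-type C57BL/6J mice, inbred animals that were 8 weeks old when obtained. In 3 mice (MI replicates 1 to 3) the left coronary artery had been ligated, which stops the blood supply to part of the left ventricle, and 4 mice (sham replicates 1 to 4) went through surgery without ligation. Tissue was taken 4 days after the operation, and each mouse gave 1 library. The study calls the tissue of the ligated hearts ischemic and does not say how it was dissected or how near to the infarct. It names no transgene or drug treatment for these mice, and the sham hearts share the surgery but not the ligation.

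Superoxide dismutases turn superoxide into hydrogen peroxide, SOD1 in the cytosol, SOD2 in the mitochondrial matrix and SOD3 outside the cell. Catalase, in peroxisomes, and the glutathione peroxidases remove hydrogen peroxide, the latter with glutathione as the electron donor and with a selenocysteine in the active site of GPX1, GPX3 and GPX4. Metallothioneins are small cysteine-rich proteins that hold zinc and copper and react with oxidants, and the zinc-sensing factor MTF1 switches on their genes through metal response elements. NQO1 reduces quinones, and its gene is a classical target of the factor NRF2, which acts through antioxidant response elements.

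Mt1 and Mt2 were the members with the largest distance between every MI heart and the sham hearts relative to the spread of the sham values, so their promoters are shown. The sequences are those of RefSeq on GRCm38.p6, from 250 bases before to 30 bases after the annotated start, both on the plus strand, Mt1 at chr8:94178839-94179118 and Mt2 at chr8:94172368-94172647. Capitals mark matches, on either strand, to the core of the metal response element (TGCGCNC or TGCACNC) and to an antioxidant response element (TGACNNNGC). The matches of the different motifs do not overlap each other.
Mt1: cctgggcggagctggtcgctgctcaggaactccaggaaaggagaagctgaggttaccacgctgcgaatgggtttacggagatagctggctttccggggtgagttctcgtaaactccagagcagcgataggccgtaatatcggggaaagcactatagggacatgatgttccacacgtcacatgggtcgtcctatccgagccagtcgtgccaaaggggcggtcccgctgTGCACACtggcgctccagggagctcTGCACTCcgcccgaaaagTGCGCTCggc
Mt2: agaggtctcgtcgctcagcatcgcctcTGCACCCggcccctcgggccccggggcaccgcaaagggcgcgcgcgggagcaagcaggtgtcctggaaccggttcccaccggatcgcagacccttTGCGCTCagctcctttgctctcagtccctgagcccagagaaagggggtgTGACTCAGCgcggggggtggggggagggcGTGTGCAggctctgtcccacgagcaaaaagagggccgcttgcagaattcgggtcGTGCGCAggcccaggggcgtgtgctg
The Mt1 window held 3 matches to the metal response element, all on the plus strand, at bases -23 to -17, 3 to 9 and 21 to 27, where the start is base 1. The Mt2 window held 4, at -223 to -217 and -128 to -122 on the plus strand and at -50 to -44 and 5 to 11 on the minus strand. It also held 1 match to the antioxidant response element, TGACTCAGC, at -79 to -71. These positions count from the RefSeq starts, 94179089 for Mt1 and 94172618 for Mt2. The GENCODE M21 start lies 7 bases before that for Mt1 and 46 bases after it for Mt2, past the end of the Mt2 window, so counted from GENCODE the positions would shift by these amounts. GENCODE lists 3 transcripts for Mt1 and 2 for Mt2, and the starts used in these hearts were not determined. Of 32851 promoters of the same length, 24.1% held at least 1 match to the metal response element, 1.73% held at least 3 and 0.405% held at least 4, and 11.5% held a match to the antioxidant response element. Promoters of 9 of the 10 members were matched by symbol. Outside Mt1 and Mt2, the one other match was an antioxidant response element on the minus strand of Sod1 at -56 to -48. A match is a description of the letters and not evidence of binding.

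The libraries held 19977713 to 23610870 fragments, and the depth ranges of the groups overlapped. MI replicate 2 stood apart from the other MI hearts. Over the 11431 genes its values correlated with the sham mean at r = 0.989, against 0.882 for MI replicate 1 and 0.908 for MI replicate 3, a description over genes that are not independent. Mitochondrially encoded genes took 28.2% of its fragments, 13.6% and 14.9% in MI replicates 1 and 3, and 26.5% to 27.4% in sham hearts. Summed FPKM of 9 cardiomyocyte markers was 9219 to 9583 in sham hearts and 4698, 9057 and 5615 in MI replicates 1, 2 and 3, so the tissue carried the markers of its label in every library. The sum of 9 macrophage markers was 201 to 255 in sham hearts and 1335, 243 and 1145 in MI replicates 1, 2 and 3. For 8 fibroblast markers it was 122 to 145 and 2492, 232 and 1923, for 5 erythrocyte markers 371 to 774 and 2390, 591 and 1014, and for 6 endothelial markers 132 to 156 and 172, 126 and 185. The 7 neutrophil markers stayed below the filter, with Retnlg and Ngp at 0 in every sham heart, and summed to 0.355 to 1.33 and 16, 0.503 and 7.77. Every MI heart was above every sham heart in 7 of 8 fibroblast and 4 of 9 macrophage markers and in 0 of 5 erythrocyte markers, and below in 2 of 9 cardiomyocyte markers and 1 of 6 endothelial markers, where 16.1% of all genes were above and 9.0% below. The macrophage marker Fcgr1, one of the 4, was under 1 FPKM in every sham heart and passed the filter through the MI hearts. In such bulk tissue, fewer cells of a type and less RNA per cell cannot be told apart. The part of these shifts in the results below was not tested.

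In the comparison of MI with sham hearts, Mt2, Gpx3, Sod3, Gpx1 and Mt1 had higher mean levels after ligation, Sod2 and Gpx4 had lower ones, and Sod1, Cat and Nqo1 stayed within 5% of the sham mean. None of the 10 passed an adjusted p of 0.05 in limma's moderated test, a threshold that 3 of the 11431 genes passed (0.0262%). At an unadjusted p under 0.05, 5 members were higher in MI (29.5% of all genes were) and 1 was lower (9.85% of all genes were), where 39.3% of all genes passed in either direction. In 3 members, Gpx3, Mt1 and Mt2, every MI heart was above every sham heart, which held for 16.1% of all genes. In 1 member, Gpx4, every MI heart was below, which held for 9.0%, and the groups did not overlap in 25.1% of all genes in either direction. That split of 3 above and 1 below was 3 and 0 after rescaling to TPM, 4 and 1 without mitochondrially encoded genes, where Gpx1 joined those above, and 3 and 2 with either quantile normalization or a scaling to the median log-ratio. The shares of all genes under these settings were not counted. The median log2 fold change of the members was 0.34, against 0.21 for all genes tested, so a value near 0.21 is that of the typical gene. When MI replicate 2 was left out, 5 members were higher at an adjusted limma p under 0.05 (57.0% of all genes) and 2 were lower (14.7%). That removes the MI heart most like the sham hearts. The adjusted p values given below without it are therefore no support for a single member. With MI replicate 1 or MI replicate 3 left out, 0 members passed.

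**Figure D1:**
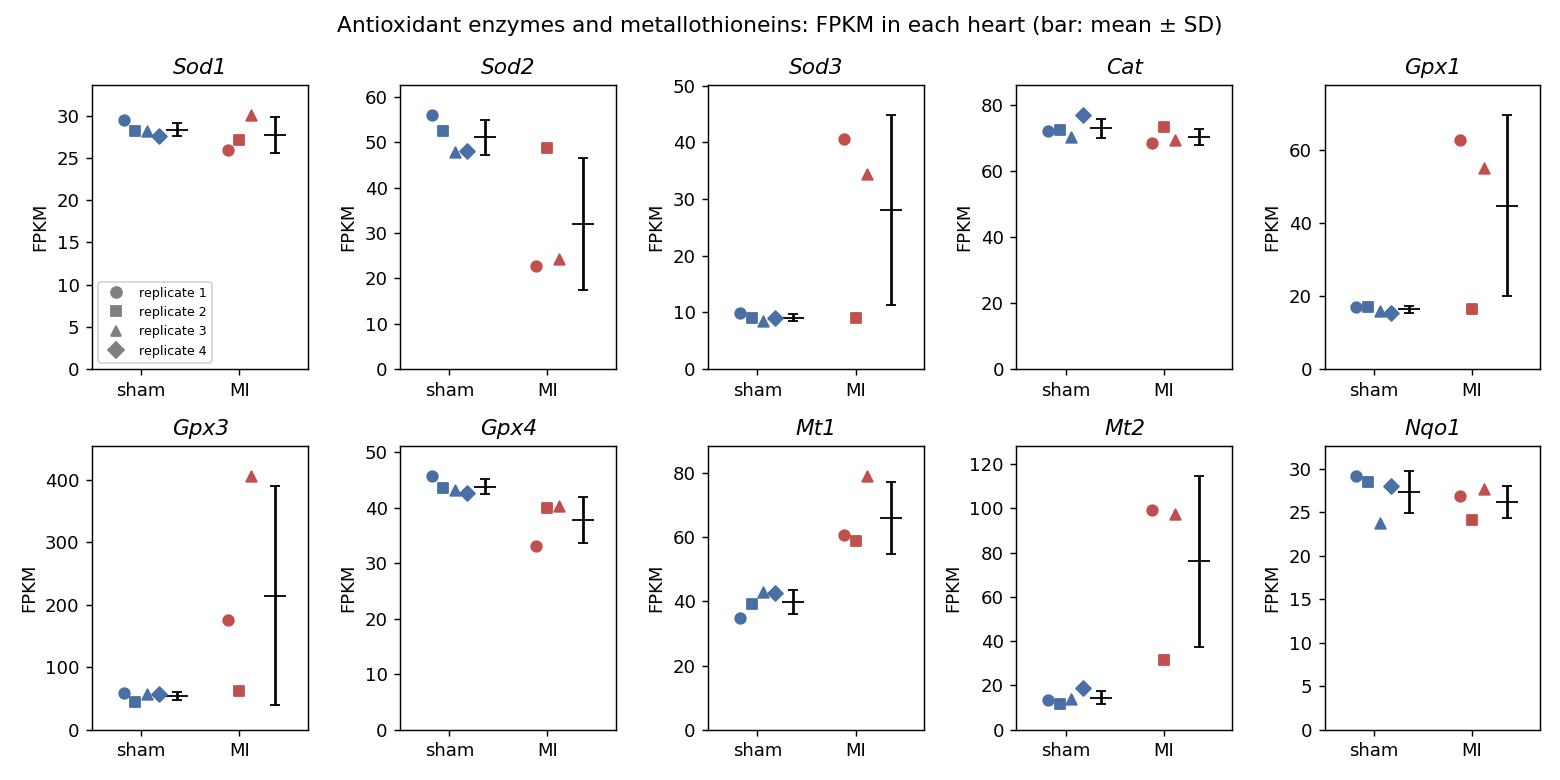
FPKM of the 10 genes in each heart (vertical axes, linear from 0), sham in blue and MI in red, with the symbol giving the replicate and the bar the mean ± SD (n = 4 sham, n = 3 MI). MI replicate 2, the red square, lies among the sham hearts for Sod2, Sod3, Cat, Gpx1 and Nqo1 and above all of them for Gpx3, Mt1 and Mt2.

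The metallothionein genes lie next to each other on chromosome 8, on the plus strand, with 5513 bases from the end of Mt2 to the start of Mt1. On GRCm38 with the GENCODE M21 annotation, Mt2 (ENSMUSG00000031762) spans 94172664 to 94173568 and Mt1 (ENSMUSG00000031765) spans 94179082 to 94180327. Mt2 shares 432 exon bases with the antisense gene Gm45774, whose mean FPKM was 0.050 in sham and 0.0599 in MI hearts.
The FPKM of Mt2 was 13.6, 11.7, 13.7 and 18.7 in sham replicates 1 to 4 and 99.3, 31.6 and 97.3 in MI replicates 1 to 3. All 3 MI hearts were above the highest sham heart, with MI replicate 2 the lowest of them. Means were 14.4 ± 2.98 (SD, n = 4) in sham and 76.0 ± 38.5 (SD, n = 3) in MI, a ratio of 5.27, counted from 212 to 311 fragments per sham heart and 1801, 596 and 1913 per MI heart. This gave a log2 fold change of 2.17 (standard error 0.40, 95% interval 1.24 to 3.10), 1.96 above the median gene, with a limma p of 0.00082 before and 0.108 after adjustment. By size this difference ranked 77 of the 11431 genes. When MI replicate 2 was left out the log2 fold change was 2.71 with an adjusted limma p of 1.66e-05, in a fit that called 57.0% of all genes higher.
Mt1 stood at 34.9, 39.1, 42.9 and 42.6 FPKM in sham replicates 1 to 4 and at 60.7, 58.8 and 79.1 in MI replicates 1 to 3. Every MI heart was again above every sham heart, and here MI replicate 2 was close to MI replicate 1. Group means were 39.9 ± 3.76 (SD, n = 4) and 66.2 ± 11.2 (SD, n = 3), a ratio of 1.66, from 1772 to 2284 fragments per sham heart and 2996, 3016 and 4235 per MI heart. On the log2 scale the difference was 0.71 (standard error 0.14, 95% interval 0.38 to 1.04), 0.50 above the median gene, with limma p values of 0.00128 unadjusted and 0.108 adjusted, and 0.79 with an adjusted p of 0.00127 when MI replicate 2 was left out.

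The metallothioneins also set MI replicate 2 apart from the sham hearts. Relative to the sham mean on the log2 scale, this heart was 1.10 higher for Mt2 and 0.55 higher for Mt1, ranks 44 and 179 among all genes. A difference of at least 0.5 in this heart was seen in 1.90% of the genes. For the other members MI replicate 2 was 0.18 above the sham mean for Gpx3, 0.02 above for Gpx1, 0.01 above for Cat, 0.01 below for Sod3, 0.06 below for Sod1, 0.07 below for Sod2, 0.13 below for Gpx4 and 0.17 below for Nqo1. Among the members, 3 were above the sham range in this heart (20.4% of all genes were), 2 were below it (30.2%) and 5 were within it, where 50.6% of all genes were outside the range. These are values of 1 animal. Its macrophage marker sum lay inside the sham range and its fibroblast marker sum above it.

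**Figure D2:**
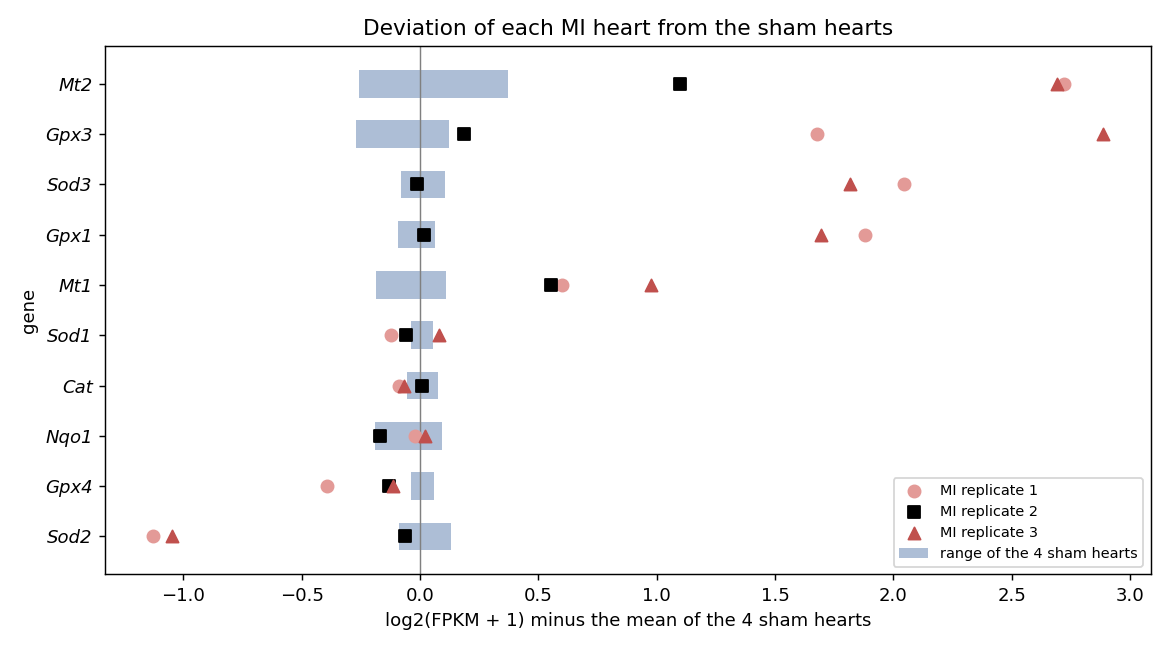
Difference of each MI heart from the mean of the 4 sham hearts in log2(FPKM + 1) (horizontal axis), one row per gene, with blue bars for the range of the sham hearts. Mt2 and Mt1 are the genes for which the black square, MI replicate 2, lies well beyond the sham range, at 1.10 and 0.55.

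Which metallothionein was the more abundant depended on the gene length used. In deposited FPKM, a per-length level, Mt1 was above Mt2 in all sham hearts and in MI replicate 2, and Mt2 was above Mt1 in MI replicates 1 and 3. The deposited values divide by the summed length of all distinct exons, with overlapping exons counted again, which is 1.82 times the merged exon length for Mt1 and 1.42 times for Mt2. With merged exons, Mt1 was at 63.4 to 78.1 FPKM in sham hearts, against 110, 107 and 144 in MI replicates 1 to 3, and Mt2 at 16.6 to 26.5 and 141, 44.8 and 138. Mt2 was then above Mt1 in MI replicate 1 alone. The ratio of MI to sham mean FPKM of a gene does not depend on the length. Within a heart, log2 Mt1 minus log2 Mt2 was 1.3, 1.66, 1.58 and 1.15 in sham replicates 1 to 4 and -0.70, 0.87 and -0.30 in MI replicates 1 to 3. It was lower in every MI heart than in any sham heart, by 1.46 on average. The exact two-sided permutation p was 0.0571, the smallest possible for 3 against 4 hearts when the smaller tail is doubled, as here. Adjusted over the 6 within-heart differences compared, this p was 0.171.

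**Figure D3:**
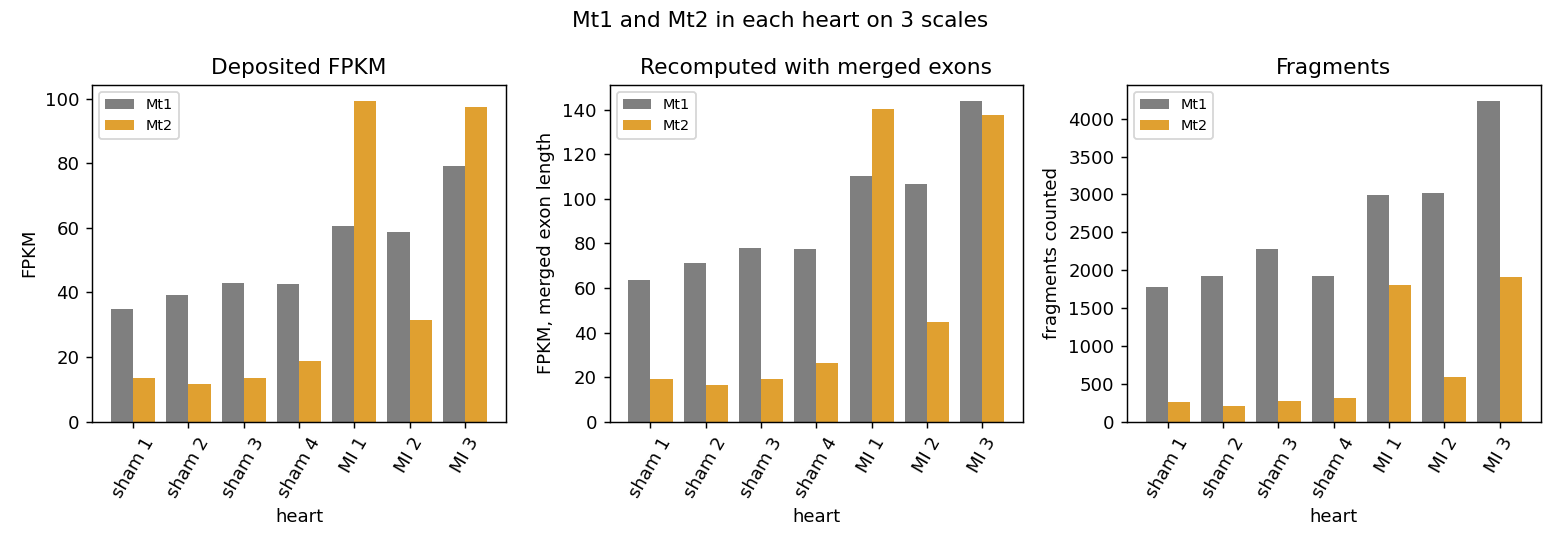
Mt1 (grey) and Mt2 (orange) in each heart as deposited FPKM, as FPKM with merged exon lengths and as fragments (3 panels, linear axes from 0). Mt2 is above Mt1 in MI replicates 1 and 3 in the first panel, in MI replicate 1 in the second and in no heart in the third.

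The 3 superoxide dismutases differed in the direction of their means, Sod2 being lower in MI and Sod3 higher. Sod1 (ENSMUSG00000022982, chromosome 16, 90220754 to 90226329, plus strand) was at 29.5, 28.2, 28.2 and 27.6 FPKM in sham replicates 1 to 4 and at 26, 27.2 and 30.1 in MI replicates 1 to 3. The groups overlapped, with one MI heart above and both others below all sham hearts. Means were 28.4 ± 0.802 (SD, n = 4) and 27.7 ± 2.10 (SD, n = 3). The log2 fold change of -0.03 (standard error 0.09, 95% interval -0.25 to 0.18, limma adjusted p = 0.777) was 0.16 after rescaling to TPM. Sod1 shares 3.42% of its 50-base stretches with the gene Gm8566, at 17.8 to 25.9 FPKM from 180 to 283 fragments, so a small part of its counts could be split.
Sod2 (ENSMUSG00000006818, chromosome 17, 13006846 to 13040063, plus strand) stood at 55.9, 52.5, 47.9 and 48.1 FPKM in sham replicates 1 to 4 and at 22.8, 48.7 and 24.2 in MI replicates 1 to 3. MI replicates 1 and 3 were below every sham heart, and MI replicate 2 lay within the sham range. From 51.1 ± 3.85 (SD, n = 4) in sham the mean went to 31.9 ± 14.6 (SD, n = 3) in MI, a log2 difference of -0.75 (standard error 0.25, 95% interval -1.34 to -0.15) with a limma p of 0.0206 unadjusted and 0.108 adjusted. Without MI replicate 2 it was -1.09 with an adjusted p of 3.78e-05. Stretches shared with other transcripts made up 21% of the gene, mostly with AC166110.4, which had at most 0.399 FPKM.
Genes of other mitochondrial proteins were lower in the same hearts as Sod2, and every MI heart was below every sham heart in 5 of 17, against 9.0% of all genes. The summed FPKM of 17 nuclear genes for mitochondrial enzymes was 4939 to 5206 in sham hearts, against 2556, 4990 and 3099 in MI replicates 1 to 3. As a percentage of that sum, Sod2 made up 0.929% to 1.07% in sham hearts and 0.890%, 0.975% and 0.780% in MI hearts, so MI replicates 1 and 3 were still below the sham range. The mitochondrial peroxiredoxin Prdx3 made up 3.14% to 3.37% in sham hearts and 3.89%, 3.20% and 3.36% in MI hearts.
Sod3 (ENSMUSG00000072941, chromosome 5, 52363791 to 52371418, plus strand) was at 9.84, 9.02, 8.53 and 8.95 FPKM in sham replicates 1 to 4 and at 40.6, 8.98 and 34.5 in MI replicates 1 to 3. The MI values lay on both sides of a wide gap, with MI replicate 2 inside the sham range. Means of 9.08 ± 0.550 (SD, n = 4) and 28.0 ± 16.8 (SD, n = 3) differed by 1.28 on the log2 scale (standard error 0.46, 95% interval 0.21 to 2.35, limma p of 0.0250, adjusted p = 0.109). It was 1.93 without MI replicate 2, with an adjusted p of 6.02e-06. Relative to the fibroblast marker sum, Sod3 was 6.73% to 7.34% in sham hearts and 1.63%, 3.87% and 1.79% in MI hearts. In MI replicates 1 and 3 that sum was mostly collagen genes and Postn, and by log2 fold change 7 of the 8 markers were above Sod3, from Tcf21 at 1.303 to Postn at 4.10, and Pdgfra was below it at 1.09.

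Within a heart, log2 Sod1 minus log2 Sod2 was -0.90 to -0.74 in sham hearts, against 0.18, -0.82 and 0.30 in MI replicates 1 to 3, an average difference of 0.71 (exact permutation p = 0.171, adjusted 0.257). For Sod1 minus Sod3 the values were 1.49 to 1.62 in sham hearts and -0.63, 1.5 and -0.19 in MI hearts, an average difference of -1.32 (exact permutation p = 0.114, adjusted 0.229). In both cases MI replicates 1 and 3 left the sham range by more than its width and the groups overlapped through MI replicate 2.

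Catalase was the most abundant member in sham hearts on both length scales and in FPKM had the smallest log2 fold change of the 4 peroxide-removing enzymes, a place that Gpx4 took after rescaling to TPM, at -0.018 against 0.148 for Cat. Cat (ENSMUSG00000027187, chromosome 2, 103453849 to 103485160, minus strand) was at 72.0, 72.4, 70.1 and 76.8 FPKM in sham replicates 1 to 4 and at 68.4, 73.1 and 69.3 in MI replicates 1 to 3. The groups overlapped, and means were 72.8 ± 2.82 (SD, n = 4) and 70.3 ± 2.50 (SD, n = 3). Its log2 fold change of -0.05 (standard error 0.09, 95% interval -0.26 to 0.16, limma adjusted p = 0.674) was 0.15 after rescaling to TPM. Cat lay 0.26 below the median gene.

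The glutathione peroxidases split by gene. Gpx1 (ENSMUSG00000063856, chromosome 9, 108338903 to 108340343, plus strand), the cytosolic enzyme, was at 17.1, 17.1, 16.0 and 15.3 FPKM in sham replicates 1 to 4 and at 62.8, 16.5 and 55.1 in MI replicates 1 to 3. MI replicates 1 and 3 were far above all sham hearts and MI replicate 2 was among them. Means were 16.4 ± 0.899 (SD, n = 4) and 44.8 ± 24.8 (SD, n = 3), apart by 1.20 on the log2 scale (standard error 0.42, 95% interval 0.22 to 2.17) with a limma p of 0.0229 and 0.109 after adjustment, and 1.79 with an adjusted p of 5.87e-06 without MI replicate 2. Gpx1 was 6.50% to 7.95% of the macrophage marker sum in sham hearts, against 4.70%, 6.81% and 4.81% in MI replicates 1 to 3.
Gpx3 (ENSMUSG00000018339, chromosome 11, 54902453 to 54910377, plus strand), the secreted enzyme of plasma, had the widest spread. It stood at 58.9, 44.6, 56.7 and 57.1 FPKM in sham replicates 1 to 4 and at 175, 61.5 and 405.7 in MI replicates 1 to 3. Every MI heart was above every sham heart, MI replicate 2 by little, and MI replicate 3 was the highest of all. Counted fragments were 2296 to 3155 per sham heart and 9040, 3303 and 22723 per MI heart. Means were 54.3 ± 6.52 (SD, n = 4) and 214 ± 175 (SD, n = 3), apart by 1.58 on the log2 scale (standard error 0.55, 95% interval 0.29 to 2.88, limma p of 0.0230, adjusted p = 0.109), or 2.28 with an adjusted p of 0.000516 without MI replicate 2 and 0.93 without MI replicate 3.
MI replicate 3 exceeded MI replicate 1 by 1.21 on the log2 scale for Gpx3, rank 28 of all genes, and a gap of at least 1 was found in 0.437% of genes. No other member came near that gap, the next being Mt1 at 0.38. As a percentage of the fibroblast marker sum Gpx3 was 33.4% to 46.8% in sham hearts, against 7.02%, 26.5% and 21.1% in MI replicates 1 to 3.
Gpx4 (ENSMUSG00000075706, chromosome 10, 80047166 to 80056439, plus strand), which reduces lipid hydroperoxides in membranes, was at 45.7, 43.6, 43.3 and 42.6 FPKM in sham replicates 1 to 4 and at 33.1, 39.9 and 40.4 in MI replicates 1 to 3. Every MI heart was below every sham heart, though not after rescaling to TPM. Means were 43.8 ± 1.33 (SD, n = 4) and 37.8 ± 4.08 (SD, n = 3), with a log2 difference of -0.21 (standard error 0.11, 95% interval -0.46 to 0.03, limma adjusted p = 0.157) that was -0.02 after rescaling to TPM. It was -0.26 with a limma adjusted p of 0.0302 without MI replicate 2, and -0.12 without MI replicate 1. These values are uncertain, since Gpx4 shares 34.7% of its 50-base stretches with the copy Gpx4-ps2, which took 6363 to 7739 fragments per heart against 2021 to 2877 for Gpx4. Summed over both, and scaled to 1000000 fragments per library, the counts were 468, 448, 442 and 444 in sham replicates 1 to 4 and 390, 393 and 441 in MI replicates 1 to 3. On this sum MI replicate 3, at 441, was level with sham replicate 3, at 442, so the groups were not separated beyond counting error.

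Within a heart, log2 Gpx1 minus log2 Gpx4 was -1.43 to -1.30 in sham hearts, against 0.90, -1.22 and 0.44 in MI replicates 1 to 3. Every MI heart was above every sham heart, on average by 1.41, with the smallest exact permutation p possible when the smaller tail is doubled (0.0571, adjusted 0.171). For Gpx1 minus Gpx3 the average difference was -0.39 (exact permutation p = 0.457, adjusted 0.549) and for Gpx3 minus Sod3, the secreted pair, 0.30 (exact permutation p = 0.571, adjusted 0.571). Both of those turned sign without MI replicate 3, to 0.02 and -0.09.

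Nqo1 (ENSMUSG00000003849, chromosome 8, 107388225 to 107403206, minus strand) was at 29.1, 28.5, 23.7 and 28.0 FPKM in sham replicates 1 to 4 and at 26.9, 24.1 and 27.6 in MI replicates 1 to 3. All 3 MI hearts lay inside the sham range. Means were 27.3 ± 2.45 (SD, n = 4) and 26.2 ± 1.85 (SD, n = 3), and the log2 fold change of -0.06 (standard error 0.11, 95% interval -0.31 to 0.20, limma adjusted p = 0.692) was 0.14 after rescaling to TPM. For Sod1, Cat and Nqo1 alike, the intervals leave room for differences of up to about 0.2 to 0.3 in either direction. The 280 bases of the Nqo1 promoter held no match to the antioxidant response element as spelled above, which says only that these letters are not in this window.

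In sham hearts the order of the deposited per-length levels was Cat at 72.8 FPKM, Gpx3 at 54.3, Sod2 at 51.1, Gpx4 at 43.8, Mt1 at 39.9, Sod1 at 28.4, Nqo1 at 27.3, Gpx1 at 16.4, Mt2 at 14.4 and Sod3 at 9.08. The sham values of Gpx3 and Sod2 overlapped, as did those of Gpx4 and Mt1, of Sod1 and Nqo1, and of Gpx1 and Mt2. Within each sham heart Gpx4 was above Mt1, by little in sham replicates 3 and 4. The order of the other pairs differed between sham hearts. With merged exon lengths, which raise Gpx1 2.37 times and leave Sod3 and Nqo1 as they are, Cat was still first at 87.4, followed by Mt1 at 72.5, Gpx4 at 71.3, Gpx3 at 71.0, Sod2 at 65.7, Gpx1 at 38.7, Sod1 at 30.8, Nqo1 at 27.3, Mt2 at 20.4 and Sod3 at 9.08. Mt1 and Gpx1 were the members that moved up most in this order, though the sham values of Mt1, Gpx4, Gpx3 and Sod2 all overlapped on this scale.

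Around these members, lists of related genes were examined, and 0 genes of any of the 10 lists passed an adjusted limma p of 0.05. The counts below are of genes whose groups did not overlap, to be read against 16.1% of all genes above and 9.0% below, and medians are to be read against 0.21 for all genes. In the glutathione peroxidase family, 5 of 8 genes were tested, and Gpx3 was above and Gpx4 below, with a median log2 fold change of 1.20. Gpx7 and Gpx8, peroxidases of the endoplasmic reticulum, had log2 fold changes of 1.48 and 1.15 and groups that overlapped through MI replicate 2.
Of 9 metallothionein and zinc genes, 7 were tested, and 3 were above, namely Mt1, Mt2 and the zinc exporter Slc30a1. Slc30a1 was at 4.25 to 4.57 FPKM in sham hearts, against 5.16, 4.87 and 5.41 in MI replicates 1 to 3, a log2 fold change of 0.18, which is below that of the median gene. Mtf1, the gene of the metal-sensing factor, was at 1.17 to 1.43 and 1.67, 1.29 and 1.52, and its groups overlapped. The median of the list was 0.56.
Of 18 NRF2 pathway genes, 16 were tested, 4 were above and 0 below, with a median of 0.41. The 4 were Hmox1, which encodes heme oxygenase-1, Gclm, the modifier subunit of the enzyme that starts glutathione synthesis, Mafg, a partner of NRF2, and Bach1, a repressor of the same sites. Hmox1 was at 3.92 to 4.86 FPKM in sham hearts, against 39.5, 4.94 and 27.2 in MI replicates 1 to 3, a log2 fold change of 1.8, beside -0.06 for Nqo1 in the same list. Gclm had a log2 fold change of 0.47, Mafg of 0.51 and Bach1 of 0.42.
Of 9 genes of glutathione synthesis and reduction, 8 were tested and 2 were above, Gclm and the glutathione reductase Gsr at 0.64 on the log2 scale, with a median of 0.36. Of 15 glutathione S-transferases, 13 were tested, 0 were above and 3 were below, Gstk1 at -0.99, Gsta4 at -0.59 and Gsta1 at -0.18, which was under 1 FPKM in every MI heart and passed the filter through the sham hearts, with a median of -0.02 that was 0.11 after rescaling to TPM.
All 7 genes of the list of peroxiredoxins and sulfiredoxin (Prdx1 to Prdx6 and Srxn1) were tested, with Prdx4, of the endoplasmic reticulum, above at 1.13 and Prdx2 below at -0.11, and a median of -0.11 that was 0.09 after rescaling to TPM. The thioredoxin list had 8 genes tested, with cytosolic Txn1 above at 0.59 and 4 genes below, the mitochondrial Txn2 at -0.42 and Txnrd2 at -0.32, Txnrd3 at -0.22 and the glutaredoxin Glrx at -0.24, and a median of -0.16.
Of 5 genes of copper delivery, 3 were tested and Ccs, the copper chaperone of SOD1, was above at 0.38, with a list median of 0.38, while Sod1 itself stood at -0.03. Of 10 genes that supply or are selenoproteins, 9 were tested and 1 was above, Selenop, the plasma selenium carrier, at 0.91, with a median of 0.10 that was -0.09 with quantile normalization. That median was 0.016 without MI replicate 3 and 0.207 without MI replicate 2. Of 13 genes of superoxide sources, 6 were tested and 2 were above, with a median of 1.21. They were Rac2, a subunit partner of the phagocyte NADPH oxidase, at 1.45 and the xanthine dehydrogenase gene Xdh at 0.62. Rac2 reached 1 FPKM in only 2 sham hearts and passed the filter through the MI hearts, so its place among the genes above is no support, and the list median was 0.85 with no filter. Xdh was at 7.26 to 10.2 FPKM in sham hearts, against 14.8, 16.0 and 12.2 in MI replicates 1 to 3, so that MI replicate 2 was the highest heart.

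**Figure D4:**
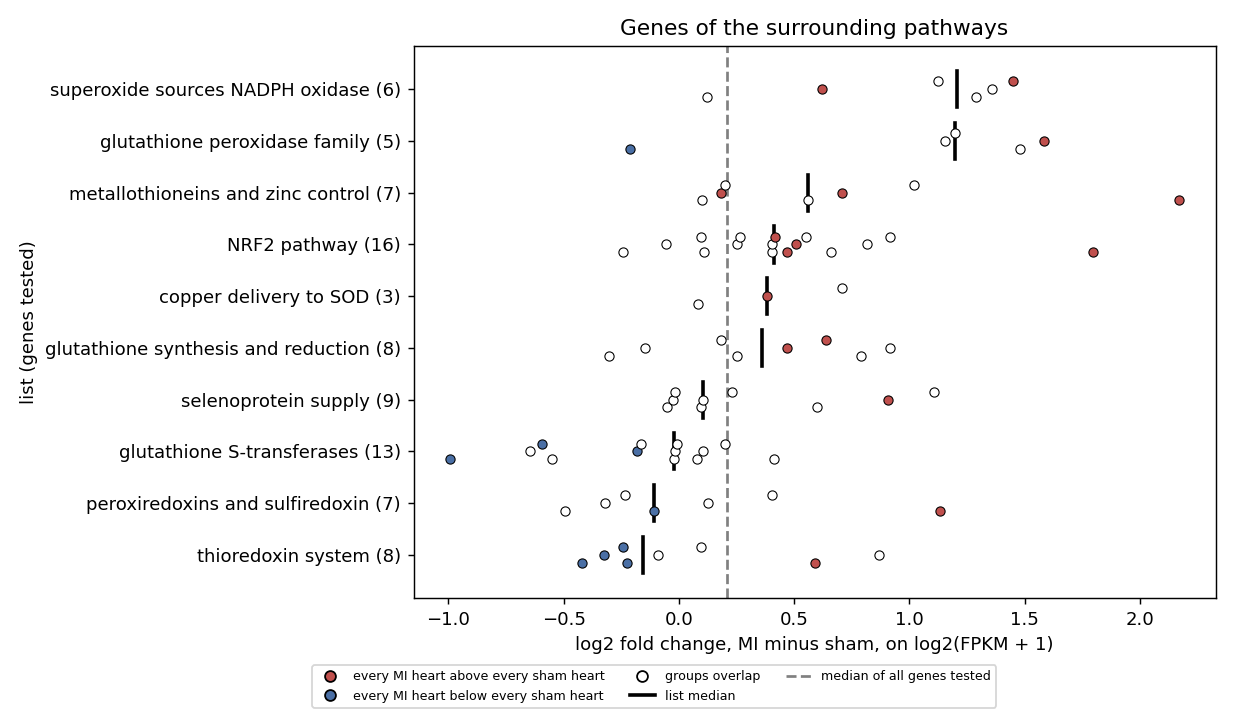
Log2 fold change of MI over sham (horizontal axis) of each tested gene in 10 lists of related genes, red where every MI heart was above every sham heart, blue where every MI heart was below, with black bars for list medians and a dashed line at the median of all genes, 0.21. List medians run from -0.16 for the thioredoxin system to 1.21 for the superoxide sources.

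The genes whose log2 values followed a member most closely over the 7 hearts were found for Mt1, Gpx3 and Cat by Pearson's r, a description over libraries that share the MI and sham split. For Mt1 they were Fam133b (r = 0.990), Zdhhc14 (0.988) and Cldn15 (0.987). Fam133b was under 1 FPKM in every sham heart and Cldn15 in 2 of them, so both passed the filter through the MI hearts. For Gpx3 they were Scd1 (0.993), Dvl3 (0.993) and Slc22a4 (0.993), and like Gpx3 each was highest in MI replicate 3, with Scd1 at 2.04 to 2.61 FPKM in sham hearts, against 8.74, 2.63 and 14.8 in MI replicates 1 to 3. For Cat the closest were Nudt6 (0.960), Gm11967 (0.949) and Tubb4b (0.923). The likeness of Cat was the weakest, over a gene that varied little.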

How the data were processed

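RNA of 7 hearts, 4 sham and 3 MI by the treatment labels, was analysed from the 1 deposited table. The authors deposited FPKM values for 56980 Ensembl genes, and 0 columns were left unused. The submitters' processing notes name CASAVA 1.8, HISAT2, SAMtools 1.3.1, edgeR and the build mm10. The annotation, the counter and the use of strand are not given in the sources used here, and that the values are FPKM was read from the values. The lengths behind them were found by recovering whole fragments (within 0.02 of a whole number): 96.0% of 11263 tested genes gave whole fragments with the summed length of distinct GENCODE M21 exons and 20.3% with merged exons. This affects levels between genes, not changes of 1 gene.

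Symbols came from GENCODE M21 on GRCm38 (52073 genes, 91.4%). Values were tested as log2(FPKM + 1), which understates the change of low genes, for the 11431 genes that reached 1 FPKM in 3 or more libraries, by the lmFit and trended eBayes functions of limma 3.58.1 in R 4.3.3, MI against sham, p adjusted by Benjamini-Hochberg over all 11431 genes at 0.05. Differences between 2 members within a heart were tested by exact two-sided permutation over the 35 splits of 7 hearts, with the p of the smaller tail doubled. Libraries held 19977713 to 23610870 fragments. The steps were tested on simulated data. Other steps ran in Python 3.11.15 with SciPy 1.17.1, NumPy 2.4.6, pandas 2.3.3 and matplotlib 3.10.9.

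Named are all 10 members, list genes whose groups do not overlap, the 3 genes most like Mt1, Gpx3 and Cat, and summed markers. Gpx7, Gpx8, Mtf1 and Prdx3 were named after their values were seen. Members, lists and this rule were chosen with earlier results of these data known. Alternatives were a pseudocount of 0.1, other filters, TPM, quantile and median log-ratio scaling, leaving out mitochondrial genes, limma without trend or with sample weights, a replicate block and each library left out. Protein sequences and a Sod3 promoter were not used here.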

Additional observations from a re-analysis of the deposited data

Results flagged for a closer look

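In the 4 sham hearts, 53 sets of values were compared with Dixon's 95% limit for the gap of an extreme heart divided by the range. It was passed by 4 sets, where chance gives about 1 in 20, or 2.65. Gpx3 was lowest in sham replicate 2 at 44.6 FPKM against 56.7, 57.1 and 58.9 in the others (ratio 0.845). The summed cardiomyocyte markers were highest in the same heart, at 9583 against 9219, 9232 and 9250 (ratio 0.914). The summed neutrophil markers were also highest there, at 1.33 FPKM against 0.355, 0.379 and 0.481 (ratio 0.871). Bach1 was lowest in sham replicate 1 at 4.33 FPKM against 6.38, 6.46 and 6.73 (ratio 0.852). Groups of 3, the MI hearts, were not examined in this way.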

How the results depend on the processing

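With sample weights, whose estimate did not converge and under which MI replicate 3 outweighed the other MI hearts, limma called 6 members higher and 2 lower in place of 0 and 0, but it also called 66.8% of all genes higher and 20.3% lower. With each library left out in turn the members called ranged from 0 to 5 higher and 0 to 2 lower, the upper ends (5 and 2) without MI replicate 2. Members with every MI heart higher ranged from 3 to 5 (5 without MI replicate 2) and with every MI heart lower from 1 to 3 (3 without MI replicate 2, 2 without MI replicate 3 and 2 without sham replicate 3). The latter numbered 0 with TPM, 2 with median log-ratio scaling and 2 with quantile normalization. The shares of all genes under these settings were not counted, so a shift of the members cannot be told from a shift of all genes. Log2 fold changes turned sign for Sod1 (0.16 with TPM, 0.082 with sample weights, -0.092 to 0.010 with a library left out, 0.010 without MI replicate 1), Cat (0.15 with TPM) and Nqo1 (0.14 with TPM, 0.026 with sample weights, -0.120 to 0.000 with a library left out, 0.000 without MI replicate 2). With libraries left out, Gpx1 minus Gpx3 ranged from -0.681 to 0.016 and Gpx3 minus Sod3 from -0.086 to 0.634, turning sign without MI replicate 3. The median gene moved from 0.21 to 0.41 with TPM, 0.05 with median log-ratio scaling and -0.03 with quantile normalization. In this order, TPM, median log-ratio and quantile, list medians were 0.086, -0.314 and -0.315 for peroxiredoxins, -0.013, -0.294 and -0.374 for the thioredoxin system, 0.11, -0.22 and -0.28 for glutathione S-transferases and 0.302, -0.025 and -0.093 for selenoproteins. Without mitochondrial genes they were -0.24, -0.25 and -0.15 for the first 3. A pseudocount of 0.1 gave -0.21 for the thioredoxin system and -0.052 for the transferases, sample weights gave -0.083 for the thioredoxin system, and leaving out libraries gave -0.119 to -0.029 for the transferases. The cause was not tested. Merged exon lengths, an alternative chosen after seeing the data, changed no call or direction of a member. Without mitochondrial genes, 4 members in place of 3 had every MI heart higher, Gpx1 being the addition. Of the values that answer a comparison, 284 were labelled unchanged, 30 moved and 6 changed sign. Unchanged means within 1.5 times for counts, the 4 in place of 3 among them, and many counts were 0 in both settings. For differences within a heart it means the same sign, whatever the size. For list medians it means the same sign and a shift smaller than the spread between MI hearts.

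A replicate block on the shared numbers called 0 members higher and 0 lower. Deviations of same-numbered hearts correlated at 0.07, -0.02 and -0.08, and 1 of 6 libraries correlated best with its own number, so the numbers do not pair the samples. The lowest count behind a member was 212 fragments, for Mt2 in sham replicate 2.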

Other observations

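Several genes around the members stayed below the filter and were not tested. Nox4, a NADPH oxidase that makes hydrogen peroxide, was at 0.0799 to 0.0909 FPKM in sham hearts, from 17 to 22 fragments, and at 2.92, 0.207 and 2.84 in MI replicates 1 to 3, from 678, 50 and 715 fragments, so every MI heart was above every sham heart. Slc7a11, the cystine carrier that feeds glutathione synthesis, was counted with 1 to 3 fragments per sham heart, against 26, 3 and 16 in MI replicates 1 to 3. Ncf4, a subunit of the phagocyte oxidase, was at 0.539 to 0.784 FPKM in sham hearts and 5.14, 0.589 and 3.71 in MI hearts. Of the other metallothioneins, Mt3 was at 0.240 to 0.393 FPKM in sham hearts and 0.353, 0.373 and 0.488 in MI hearts, and Mt4 was listed at 0 in all 7. Gpx5 was listed at 0 in all 7 hearts, and Gpx2 and Gpx6 were above 0 only in MI replicate 1, at 0.022 and 0.0803 FPKM. These genes were picked from the lists after their values were seen.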
